A study of Lotus japonicus with 16 samples.

Results

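In Lotus japonicus, 73 genes were changed by low phosphate in roots at a favorable and at a high temperature, and by high temperature in shoots with sufficient phosphate, but were not listed for high temperature in shoots at low phosphate. They are 73 of the 542 genes listed in both root comparisons and of the 3958 genes listed anywhere in the series. The members were chosen by their listing in 3 of the authors' deposited tables and their absence from the fourth. Every fold change of those tables therefore took part in the choice and is given here as a description, with no test. Absence from the fourth table means that a gene missed a limit or a filter there, not that it did not respond.

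Lotus japonicus is a small model legume, and the plants were of the accession MG-20, grown in hydroponics. Whole roots and whole shoots were collected after 3 weeks at 64 µM phosphate (sufficient P, +P) or 6.4 µM phosphate (low P, -P). Chamber temperature was 23 °C in the light and 22 °C in the dark (favorable temperature, FT) or 30 °C and 29 °C (high temperature, HT). Poly(A) RNA was sequenced in 16 libraries, 2 for each tissue, supply and temperature, and each replicate pooled 3 plants. The groups used here are +P-FT, -P-FT, +P-HT and -P-HT roots and +P-FT and +P-HT shoots, with -P-FT and -P-HT shoots entering only through the rule.

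Plants short of phosphate switch on a starvation program. In Arabidopsis and rice, SPX-domain proteins sense inositol pyrophosphates and hold back transcription factors of the PHR family when phosphate is ample. When phosphate runs short, these factors activate genes for phosphate uptake, for secreted phosphatases and for the replacement of membrane phospholipids. In legumes, nitrogen-fixing nodules add a high demand for phosphate. Warmth also changes growth, transpiration and nutrient uptake. The gene table used here names all 73 genes by locus number only and gives no function, so no gene is placed in that program. All 73 are annotated as protein-coding.

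The deposited tables hold no values per library and no read depth. For each comparison they give a gene's base mean, a log2 fold change (log2 change for short), its standard error (SE) and the DESeq2 p-values. Group levels quoted here in normalised counts were derived from the base mean and the fold, taking each table to cover the 2 libraries of each of its groups, and carry no spread of their own. Listed genes had an adjusted p under 0.05 and at least a 2-fold change. For roots, "rose" and "fell" give the direction at low P, and for shoots the direction at high temperature, as read from the order of groups in the table names. The tables do not state that orientation, and the derived levels depend on it too. Levels in roots and shoots, or in the 2 root tables, were normalised separately. In a whole organ, a change in the share of a cell type and a change in RNA per cell cannot be told apart. The defining markers of root and shoot could not be checked, because no listed gene carries a functional name.

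Low P lowered more of these genes in roots than it raised. At both temperatures 44 of the 73 fell and 29 rose, and no member went opposite ways in the 2 root comparisons. In warm shoots at sufficient P, 45 rose and 28 fell. The background in the authors' deposited tables was 10.1% of 20175 genes tested listed in roots at the favorable temperature, 4.05% of 20129 in roots at the high temperature and 8.28% of 20144 in shoots at sufficient P. By direction, 4.67% rose and 5.46% fell in the first, 2.27% rose and 1.78% fell in the second, and 4.51% rose and 3.77% fell in the third. Since all 3 listings chose the members, nothing is read from their number against these shares.

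The members fall into 4 classes of direction. There were 26 genes that rose in low-P roots and in warm shoots, and 25 that fell in both. Another 19 fell in low-P roots and rose in warm shoots, and 3 did the reverse. Low P in roots and warmth in shoots therefore moved 51 of the 73 genes the same way (69.9%) and 22 the opposite way. With the orientation of 1 tissue turned round, these numbers would change places. The root and shoot libraries are different, but +P-FT is the baseline of both the shoot comparison and the favorable-temperature root comparison. Whether the 2 organs were taken from the same plants was not given in the sources used here.

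**Figure D1:**
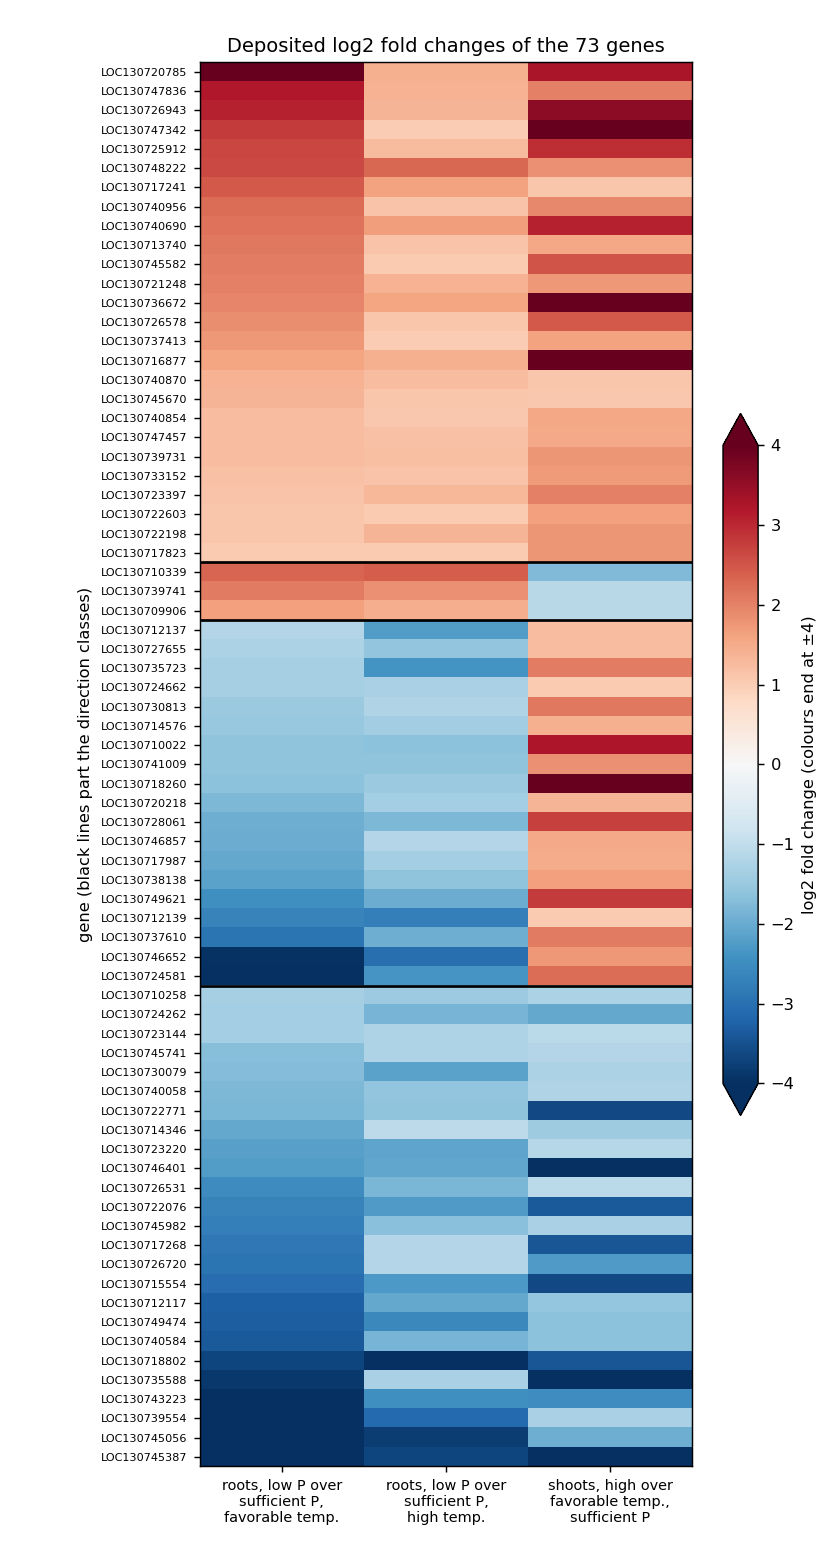
Deposited log2 changes of the 73 genes (rows) in 3 comparisons (columns): low P over sufficient P in roots at favorable and at high temperature, and high over favorable temperature in shoots at sufficient P. Red is higher and blue lower, colours end at ±4, and black lines part the classes of 26, 3, 19 and 25 genes; all 29 genes that rose and all 44 that fell in the first column keep that direction in the second.

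Among the 26 genes that rose in both tissues, the shoot change was often the largest of the 3. The shoot fold exceeded both root folds for 16 of them, lay between for 6 and was below both for 4. Their median log2 change in the authors' deposited tables was 1.91 in roots at the favorable temperature, 1.22 in roots at the high temperature and 1.79 in shoots. All genes listed as rising in those tables had medians of 1.64, 1.58 and 1.73.

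LOC130748222 ranked first in this class by its smallest fold over the 3 comparisons. It stood at 321 normalised counts in +P-FT roots and 2024 in -P-FT roots, at 353 in +P-HT and 1730 in -P-HT roots, and at 88.4 in +P-FT and 312 in +P-HT shoots. Its log2 changes in the authors' deposited tables were 2.65 (SE 0.35), 2.29 (SE 0.41) and 1.82 (SE 0.28), so low P raised it at least 4-fold in roots at either temperature. Its root levels were close in the 2 root tables at either supply.

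LOC130736672 and LOC130716877 had the largest shoot rises of all members. LOC130736672 went from 10.8 normalised counts in +P-FT shoots to 1939 in +P-HT shoots, for which the authors' deposited table gives a log2 change of 7.49 (SE 1.49). LOC130716877 went from 130 to 15085 normalised counts in the same shoots, with 6.86 (SE 1.52) in the authors' deposited table. An SE of about 1.5 at such levels is large beside the median SE of 0.38 over the members in that table. Values of the single libraries were not analysed here. In roots both genes were abundant at sufficient P too: LOC130716877 rose from 8249 to 24705 normalised counts at the favorable temperature and from 15209 to 40996 at the high one. LOC130736672 rose there from 923 to 3576 and from 2187 to 6549 normalised counts. By derived level, these 2 genes were thus abundant in roots and low in cool shoots, as far as separately normalised tables can show. Their derived levels in warm shoots came near root levels, but the large shoot SEs leave those levels uncertain.

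LOC130720785 had the largest root rise and the largest gap between temperatures. In roots it rose from 50.3 to 1836 normalised counts at the favorable temperature, and from 484 to 1296 at the high temperature. Its log2 changes in the authors' deposited tables were 5.19 (SE 0.32) and 1.42 (SE 0.41). The low-P levels of the 2 tables differed less than the sufficient-P levels, and the latter stood higher in warm roots. In shoots at sufficient P, LOC130720785 rose from 572 to 5443 normalised counts, for which the authors' deposited table gives a log2 change of 3.25 (SE 0.24). Warm plants with sufficient P thus had more of this transcript than cool ones in both organs, the root statement resting on separately normalised tables.

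LOC130740690 and LOC130721248 were weakly expressed members of the same class. LOC130740690 was at 32.4 and 145 normalised counts in +P-FT and -P-FT roots, at 58.2 and 187 in +P-HT and -P-HT roots, and at 5.09 and 42.9 in +P-FT and +P-HT shoots. LOC130721248 was at 34.5 and 141, at 51.2 and 135, and at 13.3 and 44.3 normalised counts in the same groups. Their largest SEs in the authors' deposited tables were 0.80 and 0.61, both in shoots.

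The 25 genes that fell in both tissues had the largest median root folds of the 4 classes. Their median log2 change in the authors' deposited tables was -2.74 in roots at the favorable temperature, -1.86 in roots at the high temperature and -1.64 in shoots. All genes listed as falling in those tables had medians of -1.73, -1.57 and -1.35. Here the shoot change was mostly the smallest: it was below both root folds in size for 14 genes, between them for 4 and above both for 7. Of the 7 members that changed at least 4-fold in all 3 comparisons, 6 belong to this class, and the other is LOC130724581.

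LOC130745387 fell close to the lowest levels in every treated group. It went from 206 to 5.16 normalised counts in roots at the favorable temperature, from 32.9 to 2.59 in roots at the high temperature, and from 133 to 3.34 in shoots. The log2 changes in the authors' deposited tables were -5.32 (SE 0.64), -3.67 (SE 1.15) and -5.32 (SE 0.67). LOC130718802 had the steepest fall of the members in warm roots, from 77.5 to 2.03 normalised counts (log2 change -5.25, SE 0.91, in the authors' deposited table). It fell from 257 to 20.2 normalised counts in roots at the favorable temperature and from 28.9 to 2.68 in shoots. LOC130745387 thus ended within a few counts of 0 in all 3 treated groups, and LOC130718802 did so in warm low-P roots and warm shoots.

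LOC130715554 and LOC130722076 showed the same fall from higher levels. LOC130715554 went from 1682 to 203 normalised counts in roots at the favorable temperature, from 418 to 85.7 at the high temperature, and from 697 to 56.7 in shoots. LOC130722076 went from 2101 to 328, from 653 to 136 and from 1046 to 103 normalised counts. Its shoot log2 change of -3.35 (SE 0.20) had a DESeq2 adjusted p of 4.88e-60 in the authors' deposited table, the smallest of any member there. For both genes the shoot fold was larger than either root fold.

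LOC130746401 had the largest shoot fall, and the least certain one. In shoots it went from 11.6 normalised counts to a level fitted under 1, so the log2 change of -6.04 (SE 1.91) that the authors' deposited table gives comes from the model rather than from 2 measured levels. It was the only member with a level under 1 normalised count in any of the 3 comparisons. In roots it fell from 766 to 163 normalised counts at the favorable temperature and from 511 to 122 at the high temperature.

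Some genes of this class were shoot genes by level. LOC130743223 stood at 54367 normalised counts in +P-FT shoots and 9626 in +P-HT shoots, against 185 in +P-FT roots and 11.5 in -P-FT roots. Its log2 change was -2.50 (SE 0.15) in shoots and -4.01 (SE 0.64) and -2.44 (SE 0.65) in roots in the authors' deposited tables. LOC130723220 and LOC130712117, chosen after their values were seen, had the same profile. LOC130723220 was at 49169 and 22317 normalised counts in +P-FT and +P-HT shoots and at 78.5 and 17.5 in +P-FT and -P-FT roots. LOC130712117 was at 27326 and 9323 in those shoots and at 367 and 38.5 in those roots. Across the separately normalised tables, 6 of the 73 members had a sufficient-P level at the favorable temperature over 10 times higher in shoots than in roots, 4 of them in this class. Another 27 members stood over 10 times higher in roots, 6 of them in this class, 11 among those that fell in roots and rose in shoots, and 10 among those that rose in both. Whether traces of shoot tissue in the root samples differed between groups was not tested.

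The 19 genes that fell in low-P roots and rose in warm shoots stood higher in roots at sufficient P and the favorable temperature. All 19 had a lower derived level in +P-FT shoots than in +P-FT roots. The class itself favors this, since +P-FT is its higher group in roots and its lower group in shoots. The +P-FT levels alone thus do not mark these as root genes. In +P-HT, most of the 19 still had the higher derived level in roots, as LOC130728061 did at 951 normalised counts in roots and 74.7 in shoots. A minority stood higher in shoots, as LOC130749621 did at 1181 in roots and 1590 in shoots. This comparison of organs, too, was made across separately normalised tables. In +P-FT, 9 of the 25 genes that fell in both were higher in shoots. So were 5 of the 26 that rose in both and all 3 that rose in roots and fell in shoots. The median log2 change of the 19 genes in the authors' deposited tables was -1.79 in roots at the favorable temperature, -1.62 at the high one and 1.72 in shoots. These medians were similar in size, while single genes differed. The shoot fold lay between the 2 root folds in 7 of the 19 genes, above both in 6 and below both in 6. LOC130724581 fell 46.2-fold in roots at the favorable temperature and rose 4.73-fold in shoots, whereas LOC130718260, chosen after its values were seen, fell 3.09-fold and rose 25.0-fold.

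LOC130724581 had the steepest fall of any member in roots at the favorable temperature. It went from 568 to 12.3 normalised counts there and from 214 to 41.7 in roots at the high temperature, and the authors' deposited tables give log2 changes of -5.53 (SE 0.49) and -2.36 (SE 0.54). In shoots it rose from 7.03 to 33.2 normalised counts, with a log2 change of 2.24 (SE 0.85) and a DESeq2 adjusted p of 0.046 in the authors' deposited table, close to the limit. LOC130749621 and LOC130737610 made the same turn at higher levels. LOC130749621 fell from 1575 to 285 and from 1181 to 298 normalised counts in roots, and rose from 227 to 1590 in shoots. LOC130737610 fell from 4270 to 565 and from 1234 to 319 in roots, and rose from 253 to 1070 in shoots. The shoot change of LOC130749621 in the authors' deposited table was 2.81 on the log2 scale with an SE of 0.76, so its derived shoot levels are uncertain.

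LOC130728061 differed from most of its class in warm roots. It stood at 293 and 75.4 normalised counts in +P-FT and -P-FT roots, and at 951 and 276 in +P-HT and -P-HT roots, so both supplies were higher in the warm table. In shoots it rose from 11.1 to 74.7 normalised counts. LOC130741009 had nearly equal root folds at the 2 temperatures, which the authors' deposited tables give as -1.62 (SE 0.48) and -1.62 (SE 0.34) on the log2 scale. It rose from 433 to 1549 normalised counts in shoots. LOC130746652 fell from 1700 to 111 and from 794 to 98.3 normalised counts in roots, but with SEs of 1.15 and 0.99 in the authors' deposited tables. Its shoot rise, from 76.7 to 253 normalised counts, had an SE of 0.30 in the authors' deposited table.

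The smallest class holds 3 genes with a rise in low-P roots and a fall in warm shoots. LOC130710339 rose from 21.6 to 108 and from 26.8 to 144 normalised counts in roots at the 2 temperatures, and fell from 691 to 202 in shoots. Its log2 change of 2.43 (SE 0.43) in warm roots was the largest rise of a member there in the authors' deposited table. LOC130709906 rose from 1186 to 3670 and from 1524 to 4134 normalised counts in roots, and fell from 1846 to 851 in shoots. LOC130739741 rose from 80.5 to 339 and from 162 to 580 in roots, and fell from 94.0 to 43.5 in shoots. LOC130739741 overlaps another protein-coding gene, LOC130739742, in the reference annotation. That gene was listed in all 4 of the authors' deposited tables, with log2 changes of 2.16 (SE 0.34) and 1.61 (SE 0.33) in roots and -1.29 (SE 0.36) and -1.44 (SE 0.30) in shoots at sufficient and low P. The libraries were directional, but whether counting used the strand was not given in the sources used here, so reads of this pair may have been shared between the 2 genes.

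**Figure D2:**
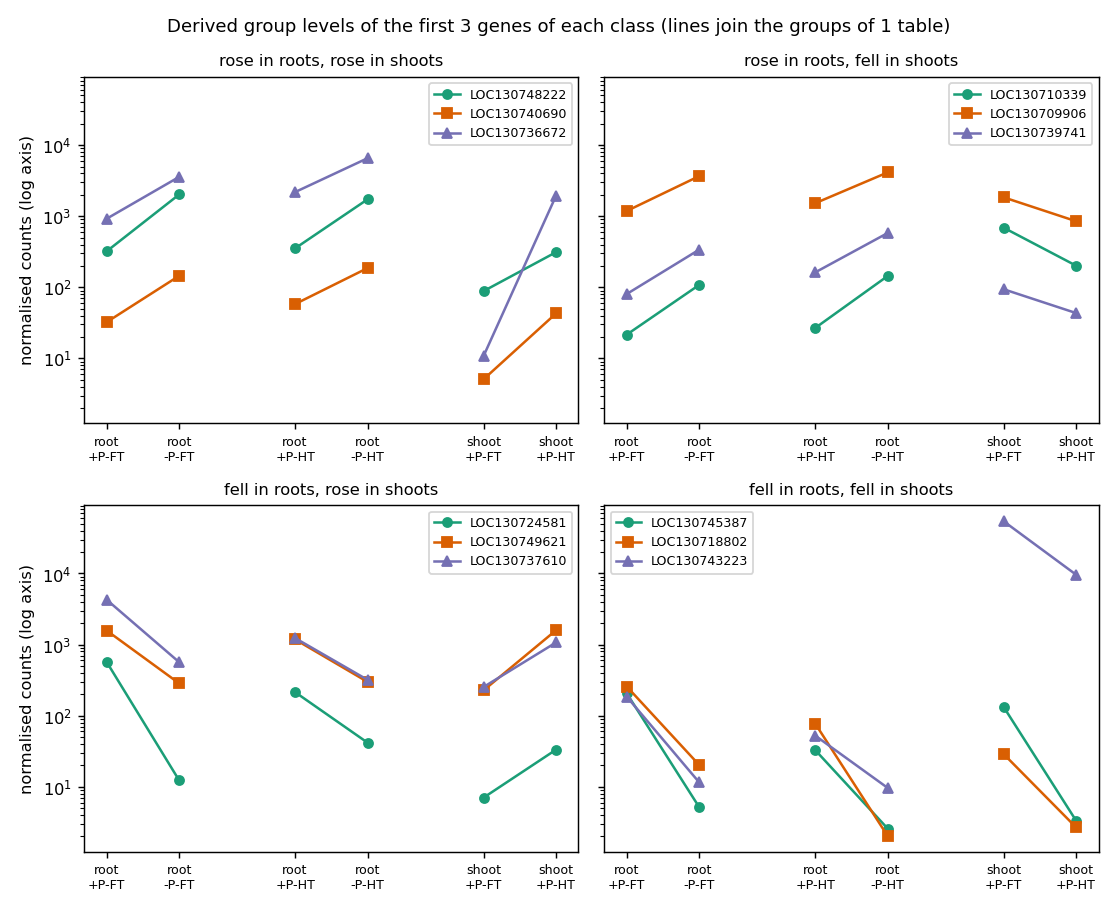
Group levels in normalised counts (log axis), derived from base mean and fold, for the first 3 genes of each class; each line joins the 2 groups of 1 deposited table, and tables were normalised separately. LOC130736672 climbs from 10.8 to 1939 in shoots, while LOC130743223 falls in shoots from 54367 to 9626 and stays under 200 normalised counts in roots.

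The low-P folds of most of these genes were smaller in warm roots. The absolute root fold was larger at the favorable temperature for 59 of the 73 members and at the high temperature for 14. The median absolute log2 change was 2.05 at the favorable and 1.48 at the high temperature. The other root genes leaned the same way, since the favorable-temperature fold was the larger one in 76.0% of all 542 genes listed in both root tables, against 80.8% of the members. By class, the favorable fold was larger for 23 of 26 genes that rose in both tissues, 21 of 25 that fell in both, 13 of 19 that fell in roots and rose in shoots, and 2 of the last 3. SEs in the authors' deposited tables were larger at the favorable temperature, with a median over members of 0.41 against 0.34. Listing keeps larger folds where errors are larger, and its part in the difference was not tested.

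**Figure D3:**
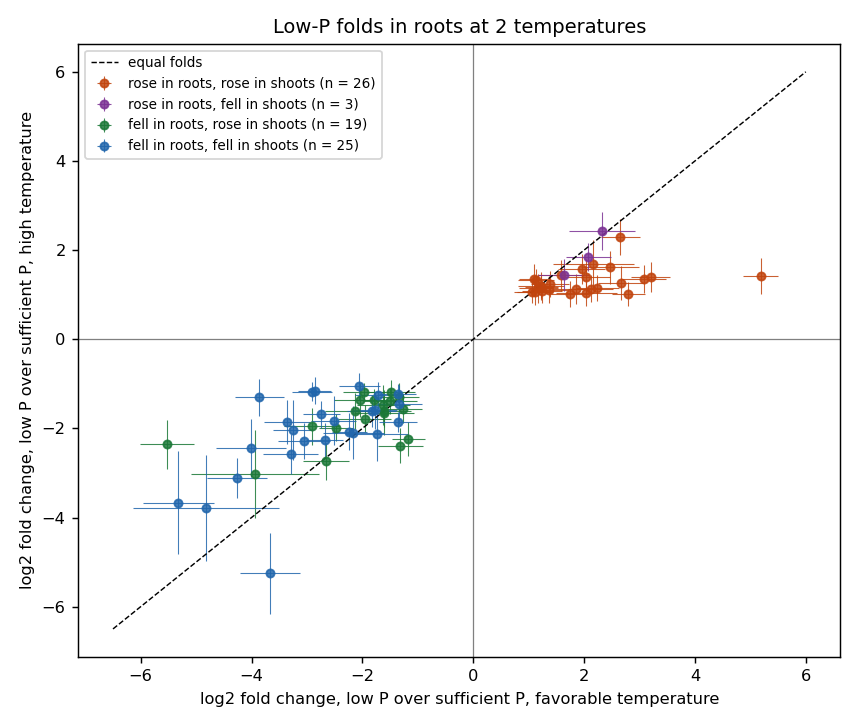
Deposited log2 changes of the 73 genes for low P over sufficient P in roots at the favorable (x axis) and the high temperature (y axis), with bars of 1 SE, coloured by class; the dashed line marks equal folds. Of the 73 points, 59 lie on the side of the larger favorable-temperature fold, and LOC130720785 (5.19 against 1.42) is farthest from the line.

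After LOC130720785, the largest gaps between the root temperatures were those of LOC130724581, LOC130735588, LOC130747836 and LOC130747342, the last 3 chosen after their values were seen. LOC130735588 went from 605 to 41.5 normalised counts at the favorable temperature and from 121 to 49.1 at the high temperature. LOC130747342 went from 134 to 934 and from 475 to 964. In these 2 genes the low-P levels of the tables were alike and the sufficient-P levels were not. LOC130747836 went from 232 to 2134 and from 339 to 890 normalised counts, so its low-P level was the one that stood apart, and in LOC130724581 both levels differed. In warm shoots at sufficient P, LOC130735588 dropped from 247 to 7.37 normalised counts and LOC130747342 climbed from 59.0 to 1283. The log2 changes in the authors' deposited table were -5.07 with a large SE of 1.50 for LOC130735588 and 4.44 (SE 0.58) for LOC130747342.

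The sufficient-P levels of the 2 root tables were then set side by side for every member. Of the 25 genes that fell in low-P roots and in warm shoots, 24 had a lower sufficient-P root level in the high-temperature table, with a median log2 ratio of -1.62. The exception, named after its values were seen, was LOC130722771, at 4012 and 4500 normalised counts. Of the 26 genes that rose in both tissues, 20 had a higher sufficient-P root level in the high-temperature table, with a median log2 ratio of 0.56. Of the 19 genes with a fall in roots and a rise in shoots, 13 were lower in the warm table, against the direction of their shoots. The 3 genes that rose in roots and fell in shoots were all higher in the warm table, also against their shoots.

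Root genes in general leaned the same way, so these counts are read against them. Among the genes outside the 73 that fell in both root tables, 78.1% of 178 had the lower sufficient-P level in the warm table. That compares with 96.0% of the members that fell in both tissues and 68.4% of those that fell in roots and rose in shoots. Among the genes outside the 73 that rose in both root tables, 64.1% of 287 had the higher sufficient-P level in the warm table, against 76.9% of the members that rose in both tissues. The median log2 ratio over all 542 genes was -0.08. The sufficient-P root libraries enter both these ratios and the folds that chose the members, so the 2 are not independent. No test was made of this pattern.

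Low-P root levels moved less in most members. The matching share among the other root genes was not computed, so this lean is not read as particular to the members. The sufficient-P level moved more than the low-P level in 46 of the 73, and in 49 once each was centred on its median over the 542 genes. That median was -0.27 for the log2 ratio of low-P levels, warm over favorable table, so the low-P ratios are read against it. In the 26 genes that rose in both tissues the median was 0.02, with 14 higher and 12 (46.2%) lower in the warm table. Among the 287 genes outside the 73 that rose in both root tables it was -0.26, and 65.5% were lower. In the 25 genes that fell in both tissues the median was -0.62, and 84.0% were lower, against -0.26 and 62.9% among the 178 genes outside the 73 that fell in both root tables. These differences from the other root genes were not tested, and the low-P libraries too enter the folds that chose the members.

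**Figure D4:**
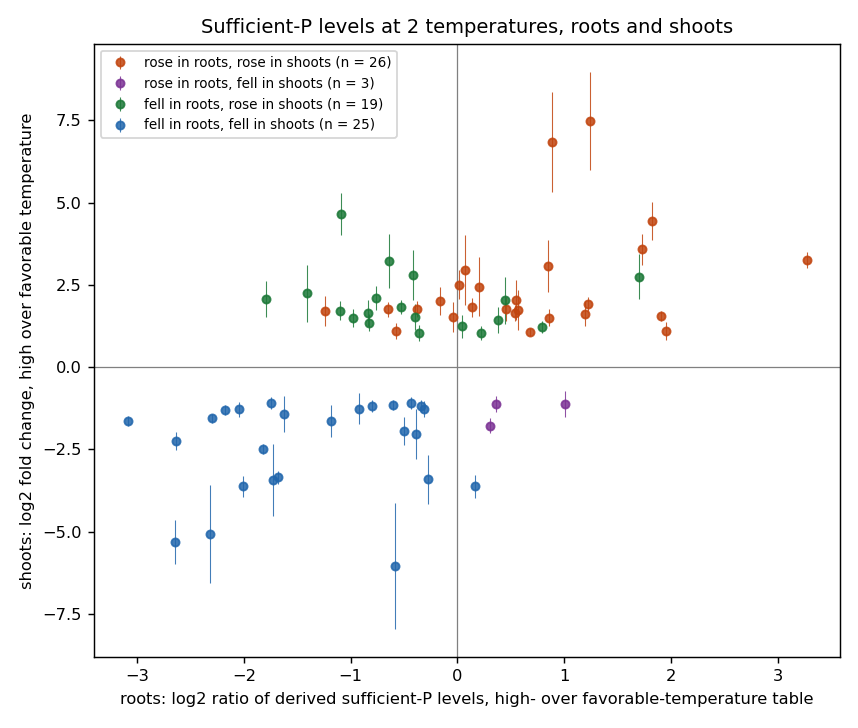
For the 73 genes, the log2 ratio of derived sufficient-P root levels in the high- over the favorable-temperature table (x axis) against the deposited log2 change for high over favorable temperature in shoots at sufficient P (y axis, bars of 1 SE), coloured by class. Of the 25 genes that fell in both tissues 24 lie left of 0, and of the 26 that rose in both 20 lie right of 0.

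The sizes of the changes were only loosely related between organs. Across the 73 genes, the absolute root fold at the favorable temperature and the absolute shoot fold had a Pearson's r of 0.25 and a Spearman's rho of 0.32. For the root fold at the high temperature and the shoot fold, r was 0.11 and rho 0.09. Over all members, the absolute root folds at the 2 temperatures were closer, with an r of 0.58 and a rho of 0.48. Among the 26 genes that rose in both tissues, that order held by r (0.33 against 0.24 for favorable-temperature roots and shoots). By rho it did not (0.37 against 0.44). All these folds had passed the 2-fold limit of the lists. These are descriptions across genes, which are not independent replicates, and all points share the same few libraries. The shoot fold was larger than both root folds in 29 members, smaller than both in 27 and between them in 17.

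**Figure D5:**
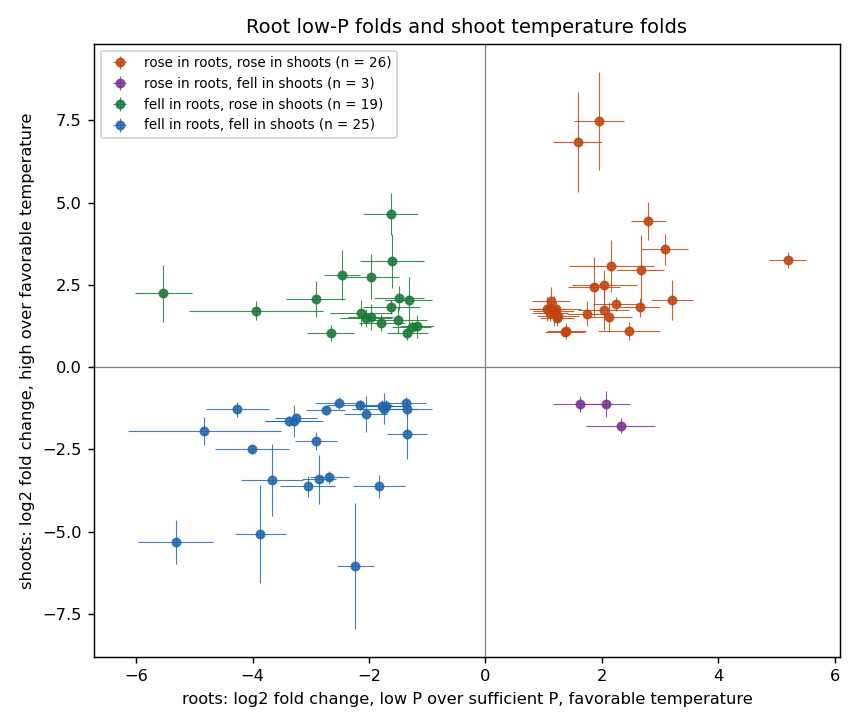
Deposited log2 changes of the 73 genes for low P over sufficient P in roots at the favorable temperature (x axis) and for high over favorable temperature in shoots at sufficient P (y axis), with bars of 1 SE, coloured by class. The 26 genes at upper right and the 25 at lower left moved the same way in both organs, and the gap around 0 on each axis is the 2-fold limit of the lists.

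The other genes listed in both root tables give the setting for these members. Of the 542, 316 rose and 222 fell at both temperatures, which is 1.57% and 1.10% of the 20129 genes tested (2.69% for the whole set), and 4 went opposite ways. The 73 members took up 9.18% of the genes that rose and 19.8% of those that fell. The 71 genes listed instead only in shoots at low P took up 18.4% of the genes that rose and 5.86% of those that fell. In that comparison 4.16% of the 20438 genes tested were listed. Of those 71, 54 were higher in low-P roots and lower in warm low-P shoots, and 15.5% went the same way in both organs, against 69.9% of the 73 members. A further 23 genes were listed in both shoot tables, and 375 in neither. Of those 23, 47.8% went the same way in low-P roots and in warm sufficient-P shoots, the shoot comparison of the members. For warm low-P shoots the share was 30.4%. The members' median absolute root fold at the favorable temperature (log2 2.05) lay near that of the 375 genes in neither shoot table (2.05) and below that of the 71 genes (2.63) and of the 23 genes (2.18). At the high temperature the members' median (1.48) lay below that of each other set, at 1.68 for the 375 genes, 2.08 for the 71 and 1.75 for the 23. The sets are split by the lists themselves, so these values are given side by side without a test.

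A few members lay close to the limits that chose them. LOC130717823 had a log2 change of 1.05 (SE 0.31) in roots at the favorable temperature and LOC130737413 one of 1.02 (SE 0.30) in warm roots in the authors' deposited tables. LOC130712139 entered with 1.04 (SE 0.24) in shoots in the authors' deposited table. By adjusted p, those nearest the limit were LOC130739731 in roots at the favorable temperature (DESeq2 adjusted p = 0.034), LOC130746652 in warm roots (0.045) and LOC130714346 in shoots (0.048) in the authors' deposited tables. Just outside the rule, LOC130718581 and LOC130726546 met all 3 listings but were also listed in low-P shoots. For low-P shoots the authors' deposited table gives them log2 changes of 1.30 (SE 0.31) and -1.31 (SE 0.44), the second with a DESeq2 adjusted p of 0.043. No fold is known for the members in low-P shoots.

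The members were seldom neighbours. Only 1 pair lay within 5 protein-coding genes of each other in the reference annotation, LOC130712117 and LOC130712137, with 1 gene between them. They fell together in low-P roots and parted in warm shoots, where LOC130712117 had a log2 change of -1.55 (SE 0.14) and LOC130712137 one of 1.24 (SE 0.35) in the authors' deposited table. No member had values identical to those of another gene. Besides LOC130739741, only LOC130713740 and LOC130730079 overlap another annotated gene, in each case a long noncoding RNA gene that was not listed.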

How the data were processed

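The 4 tables read here each hold a comparison of 2 groups of 2 libraries made by the authors. Without values per library, read depth is unknown. DESeq2 1.44.0, RSEM 1.3.3, FastQC 0.14.0 and Trimmomatic 0.39.2 were used, per the submitters' processing notes; the genome build was not given in the sources used here. Per the file headers, the authors deposited base means, which in DESeq2 average size-factor-scaled counts over libraries. These were taken to be the libraries of the 2 groups compared, because the base mean of all 73 members differed between the root tables. The deposited log2 fold change comes with a standard error and a Wald statistic (each a score), and a p-value and adjusted p-value follow. The statistic equalled fold over error in every row, and folds were taken as not shrunken. That equality alone cannot settle the point, and the derived levels rely on it. All rows passed an adjusted p of 0.05 and a log2 fold change of 1 in size. The number of genes tested was taken as the top gene's adjusted p divided by its p, a step tested on simulated data. Levels were derived as 2 groups of equal size with the deposited mean and fold, in Python 3.11.15 with pandas 2.3.3.

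Groups were read from sample titles. The members, lists and rules were chosen with earlier results of these data known. Within each class of direction, members were ranked by their smallest absolute log2 fold change over 3 tables and the first 6 were named, with the largest changes and those nearest the limits; all others were chosen after their values were seen. RefSeq's gene table for LjGifu_v1.2 held all 3958 identifiers and was used for symbols, biotypes and neighbours only. It gives no descriptions and no sequences, so 12 prepared lists of gene functions could not be scored and promoter motifs were not searched.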

Additional observations from a re-analysis of the deposited data

How the results depend on the processing

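No paired analysis was possible because the deposited files give only fold changes between groups, which also kept replicates from being left out. The promoter alternatives were not run. A 4-fold change in all 3 tables left 7 of the 73 members: 6 that fell in both tissues, 1 that fell in roots and rose in shoots (LOC130724581), 0 that rose in both and 0 that rose in roots and fell in shoots. A Bonferroni limit over the genes tested left 6: 5 that fell in both tissues (LOC130715554, LOC130722076, LOC130726720, LOC130739554, LOC130745982), 1 that rose in both (LOC130748222), and 0 in each of the classes with opposite directions. The genes named here were chosen after their values were seen. A base mean of at least 100 left 41: 15 that rose in both, 12 that fell in both, 13 that fell in roots and rose in shoots and 1 that rose in roots and fell in shoots. There, 81.0% of members had their larger root fold at the favorable temperature (base mean limit in roots only) and 65.9% went the same way in both organs. With either root table enough, 334 genes qualified, 98, 133, 79 and 24 in that order. Fewer or more genes follow from the construction of these limits. With the roots turned round, 25 would rise in roots and fall in shoots and 3 would fall in both; with the shoots turned round, 3 would rise in both and 26 would rise in roots and fall in shoots. Centring the levels across the root tables, added after seeing the data, left 24 of 25 genes that fell in both lower in warm sufficient-P roots, and 10 of the 26 that rose in both lower in warm low-P roots (12 before centring).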
